A study of Mus musculus with 15 samples.

Results

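Rspry1, Polr1a and Apoh are 3 genes that were higher in every library of Tex15-/- foetal gonocytes than in every control library. They were chosen from the gene counts of these same 6 libraries for that pattern and for their similar levels among the knockouts, so their gonocyte values are given as a description with no test. They are 3 of 54838 gene identifiers in the count files and 3 of the 16311 genes that passed the filter on low counts, which all of them did. In 1062 of the 16311 genes, or 6.51%, all 3 Tex15-/- libraries lay above all 3 controls.

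The study asked what TEX15, a nuclear protein found with the PIWI protein MIWI2, does in the silencing of transposable elements in the mouse male germline. Gonocytes, the foetal germ cells of the testis, were sorted at E16.5 by the red fluorescence of a Miwi2 tdTomato reporter allele that both groups carried in 1 copy. Control cells were Tex15+/- and carried 1 disrupted Tex15 allele, knockout cells were Tex15-/-, and both were of a mixed background (strain entry "mixed B6CBAF1/Crl; C57BL/6N"). The Tex15 null line descends from 1 founder. Small RNA was sequenced from pooled whole E16.5 foetal testes that were Tex15+/- or Tex15-/-, 3 libraries each. The paper does not say whether these testes carried the reporter allele. The labels do not say whether libraries of a group came from separate embryos, so p-values measure the spread between libraries, which may be technical.

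Rspry1 encodes a protein with a RING finger, a fold found in many ubiquitin ligases, and a SPRY domain, a protein interaction module. In humans, loss of its function is known from a form of skeletal dysplasia. Polr1a encodes the largest subunit of RNA polymerase I, the nucleolar enzyme that transcribes the ribosomal RNA precursor. Apoh encodes apolipoprotein H, also called beta-2-glycoprotein I, a phospholipid-binding protein of blood plasma that is made mainly by the liver and is the main antigen of antiphospholipid antibodies. No common pathway joins these 3 proteins in textbook knowledge.

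The gonocyte libraries held between 4893265 and 5697020 reads on genes. Tex15 itself was read 8183, 8315 and 9082 times in controls against 2338, 1267 and 1310 times in knockouts, a log2 fold change of -2.35 ± 0.23 (SE), with an adjusted p of 0.0112 in edgeR's quasi-likelihood test. The germ cell markers had a summed level of 3097 to 3248 CPM (counts per 1000000 reads on genes) in controls and 3007 to 3203 CPM in Tex15-/- gonocytes. Of these 10 markers, Nanos2, Nanos3 and Dppa5a were low, and in Dazl and Nanos3, with log2 fold changes of -0.28 ± 0.10 (SE) and -0.86 ± 0.46 (SE) that did not pass the test, all knockouts lay below all controls, as in 6.68% of all genes tested. Tex15-/- libraries 2 and 3 stood apart by markers of somatic testis cells and by a lower share of reads on no annotated feature, given with the results below. At an adjusted p under 0.01, 0 of 16311 genes (0%) were called in either direction by edgeR, while 3 (0.0184%) had an adjusted p under 0.05 and 1501 (9.2%) an unadjusted p under 0.05. DESeq2, run with no prior filter, called 12 of 42445 genes (0.0283%).

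Rspry1 (ENSMUSG00000050079) lies on the plus strand of chromosome 8 at chr8:94601937-94660275 of GRCm38, a span of 58339 bp with 7 annotated transcripts, 4 of them protein-coding. It had 123, 137 and 140 reads in control libraries 1 to 3 and 305, 298 and 290 reads in Tex15-/- libraries 1 to 3. As CPM with TMM normalisation, a scaling between libraries, its levels were 22.7, 27.5 and 25.7 in the 3 controls against 61.1, 54.1 and 55.2 in the 3 knockouts. The highest control was library 2 and the lowest knockout was library 2, and the lowest knockout was 1.97 times the highest control. The means were 25.3 ± 2.42 CPM (SD, n = 3) in controls and 56.8 ± 3.76 CPM (SD, n = 3) in knockouts, 2.25-fold higher, with a fitted log2 fold change of 1.17 ± 0.14 (SE). Counting error alone would give a coefficient of variation of 8.66% in controls and 5.80% in knockouts, and the observed values were 9.58% and 6.62%. The spread of the knockouts is a description, for this and the other 2 genes, since similar knockout levels were part of the choice.

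Polr1a (ENSMUSG00000049553) lies on the plus strand of chromosome 6 at chr6:71909053-71984935, a span of 75883 bp with 10 transcripts, of which 1, Polr1a-201 with 34 exons, is protein-coding. It had by far the most reads of the 3, with 784, 568 and 707 reads in the 3 controls against 1004, 1189 and 1068 in the 3 knockouts. The levels were 145, 114 and 129.6 CPM in controls and 201, 216 and 203 CPM in knockouts. Control library 1 came nearest to the knockouts, and the lowest knockout, library 1, was 1.39 times its level, the narrowest gap among the 3 genes. The means were 129 ± 15.3 CPM (SD, n = 3) in controls and 207 ± 8.04 CPM (SD, n = 3) in knockouts, 1.60-fold higher, with a log2 fold change of 0.68 ± 0.11 (SE). Control libraries varied by 11.8%, against 3.82% from counting error, and knockouts by 3.89%, against 3.03%.

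Apoh (ENSMUSG00000000049) lies on the plus strand of chromosome 11 at chr11:108343354-108414396, a span of 71043 bp with 4 transcripts, all protein-coding. Its longest transcript, Apoh-201 with 8 exons, starts at position 108395293, far inside the annotated span. Apoh was the lowest of the 3 in reads, with 35, 23 and 37 in the 3 controls against 81, 79 and 77 in the 3 knockouts. This gave 6.45, 4.61 and 6.78 CPM in controls and 16.2, 14.4 and 14.7 CPM in knockouts, and the lowest knockout was 2.12 times the highest control. The means were 5.95 ± 1.17 CPM (SD, n = 3) in controls and 15.1 ± 1.01 CPM (SD, n = 3) in knockouts, 2.53-fold higher, with a log2 fold change of 1.34 ± 0.26 (SE). The knockouts varied by 6.69%, less than the 11.3% that counting error gives on average at such read numbers, and the controls by 19.7%, against 17.8%.

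**Figure D1:**
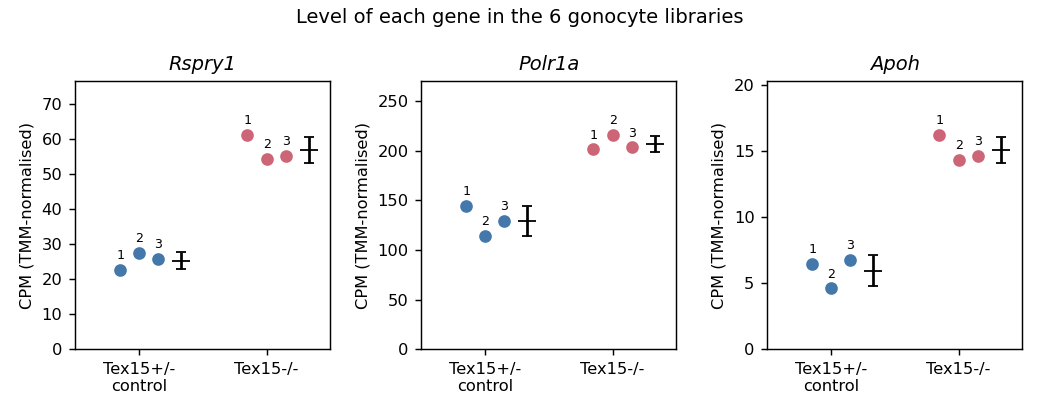
Level of Rspry1, Polr1a and Apoh in CPM (vertical axes, each starting at 0) in the 3 Tex15+/- control and 3 Tex15-/- gonocyte libraries. Points are libraries with their replicate number, and bars show the mean ± SD (n = 3). For each gene all knockout points lie above all control points, with the narrowest gap for Polr1a, where the lowest knockout is 1.39 times the highest control.

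Among all genes tested, 2.79% had a log2 fold change at least as high as that of Rspry1, 7.23% at least that of Polr1a and 2.18% at least that of Apoh. Taken by the gap between groups instead, 16 tested genes had a ratio of lowest knockout to highest control at least as high as that of Rspry1, 89 as high as Polr1a and 11 as high as Apoh, each count including the gene itself. A ratio of at least 1.3 was seen in 138 genes, or 0.846%. These are the values that chose the genes and they lend no support of their own.

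**Figure D2:**
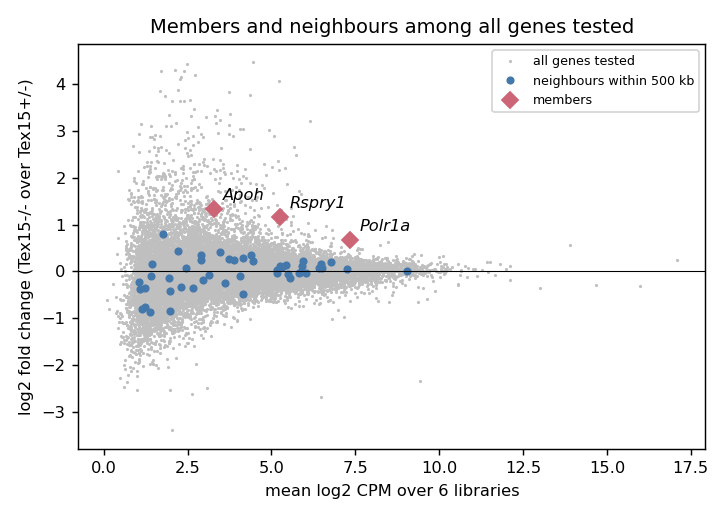
Log2 fold change of Tex15-/- over Tex15+/- gonocytes against mean log2 CPM over the 6 libraries for the 16311 genes tested (grey), the 47 tested neighbours of the 3 genes (blue) and the 3 genes (red diamonds). Scatter is wide at low level and narrow at high level. The 3 genes, at log2 fold changes of 0.68 to 1.34, lie in the upper part of the cloud. Between 2.18% and 7.23% of all genes tested were at least as high, and the neighbours also lie within the cloud.

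Per kilobase of annotated exon, which allows levels of different genes to be compared, Polr1a was highest in both genotypes, and the order of Apoh and Rspry1 depended on the length used. In controls Polr1a was at 10.9 ± 1.29 CPM per kb, Apoh at 3.73 ± 0.733 and Rspry1 at 1.91 ± 0.183 (SD, n = 3 each). In Tex15-/- gonocytes they were at 17.4 ± 0.678, 9.46 ± 0.633 and 4.30 ± 0.285 CPM per kb (SD, n = 3 each). On this length Apoh lay above Rspry1. By all annotated exons Rspry1 lay above 33.3% of tested genes in controls and above 56.3% in knockouts, Apoh above 53.0% and 76.7%, and Polr1a above 80.1% and 87.4%. The exons of Rspry1 sum to 13211 bp because its annotation includes long retained introns, and on spliced lengths (3852 bp for Rspry1-201, 9216 bp for Polr1a-201 and 1190 bp for Apoh-201) the order turned. Rspry1 was then at 6.56 ± 0.629 CPM per kb in controls and 14.7 ± 0.977 in knockouts, above Apoh at 5.0 ± 0.982 and 12.7 ± 0.848, and Polr1a was at 14.0 ± 1.66 and 22.4 ± 0.873 (SD, n = 3 each). Which of Apoh and Rspry1 is higher per length is therefore uncertain.

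Within a genotype the 3 genes did not share an order of libraries. In controls Polr1a and Apoh were both lowest in library 2, where Rspry1 was highest. In knockouts Rspry1 and Apoh were highest in library 1, where Polr1a was lowest. Over the 6 libraries Pearson's r of log2 CPM was 0.90 for Rspry1 with Polr1a, 0.94 for Rspry1 with Apoh and 0.98 for Polr1a with Apoh. Since the libraries of both genotypes stand apart for all of these genes, r only ranks likeness here and carries no test.

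By the same measure the tested genes most like Rspry1 were Zcchc8, which encodes a zinc finger subunit of a nuclear RNA exosome targeting complex (r = 1.00), the deubiquitinase gene Usp51 (r = 0.99) and the kinesin gene Kifc5b (r = 0.99). Zcchc8 had 61.8, 64.4 and 64.3 CPM in controls and 79.4, 76.7 and 76.3 CPM in knockouts. Those most like Polr1a were Csmd3, which encodes a large membrane protein (r = 0.99), Babam1, which encodes a subunit of a BRCA1 complex (r = 0.99), and the Mediator subunit gene Med23 (r = 0.99). Those most like Apoh were the zinc finger gene Zfp64 (r = 0.99), Tcof1, which encodes the nucleolar cofactor of RNA polymerase I called treacle (r = 0.99), and Tspyl1 (r = 0.98). None of these 9 lies on the chromosome of the gene it resembles. Their log2 fold changes ran from 0.16 ± 0.08 (SE) for Med23 to 1.53 ± 0.59 (SE) for Csmd3, a gene with 3 to 5 reads in controls and 10 to 14 in knockouts, and Usp51 had 1.19 ± 0.47 (SE) beside 1.17 for Rspry1.

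No neighbouring gene passed the test, and by edgeR no gene of the 16311 tested did. Within 500 kb on either side of their spans the count files list 103 annotated genes, of which 47 passed the filter, 23 around Rspry1, 19 around Polr1a and 5 around Apoh. Of these, 0 were called at an adjusted p under 0.01 by edgeR or DESeq2, beside 0% and 0.0283% of all genes. Such counts cannot set the neighbours apart from other genes. The lowest adjusted p by edgeR was 0.507. 1 gene had an unadjusted p under 0.05, or 1 of 47 against 9.2% of all genes tested. Their median log2 fold change was 0.01, against -0.00031 for all genes tested, and they ranged from -0.87 to 0.79. Within 1000 kb, 0 of 87 tested genes were called, 5 had an unadjusted p under 0.05, and the log2 fold changes ranged from -1.10 to 1.60, so that the highest, a gene near Polr1a, lay above Polr1a itself. In that wider window 4 of 34 genes around Polr1a had all knockouts above all controls, against 6 of 87 around all 3 genes and 6.51% of all genes tested.

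By its outermost annotated start, each of the 3 genes begins close to a protein-coding gene on the opposite strand, and none of these partners passed the test. Fam192a, whose protein binds a proteasome activator, starts 60 bp inside Rspry1 and runs the other way. Its levels were 87.0, 85.0 and 81.4 CPM in controls and 77.0, 100.5 and 104 CPM in knockouts, so the groups overlapped, with a log2 fold change of 0.15 ± 0.13 (SE) and an adjusted p of 0.713 by edgeR. Ptcd3, which encodes a protein of mitochondrial translation, starts 303 bp upstream of Polr1a. It had 46.3, 46.1 and 44.0 CPM in controls and 48.9, 39.1 and 43.4 CPM in knockouts, a log2 fold change of -0.05 ± 0.14 (SE) with an adjusted p of 0.906 by edgeR. Prkca, the gene of protein kinase C alpha, starts 574 bp inside the annotated span of Apoh, far from the start of Apoh-201. It had 8.85, 11.8 and 5.68 CPM in controls and 8.82, 8.90 and 7.23 CPM in knockouts, a log2 fold change of -0.08 ± 0.32 (SE) with an adjusted p of 0.948 by edgeR. Of 14023 protein-coding genes tested, 2059, or 14.7%, have such an opposite-strand coding partner that starts within 1000 bp.

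**Figure D3:**
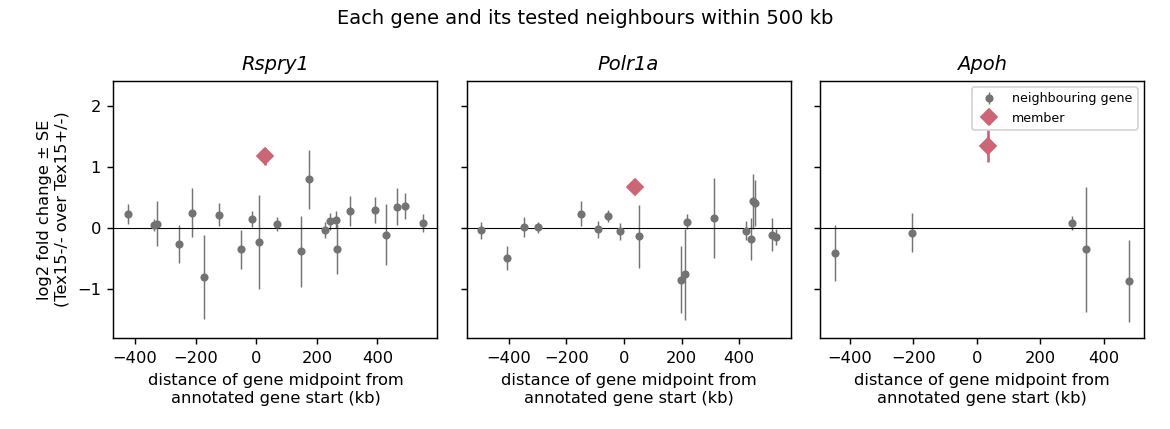
Log2 fold change ± SE (Tex15-/- over Tex15+/- gonocytes) of the 47 tested genes within 500 kb of Rspry1, Polr1a or Apoh (grey), against the distance of the gene's midpoint from the annotated start of the named gene in kb. The named genes (red diamonds, 1.17, 0.68 and 1.34) each lie above the tested neighbours in their own panel. They were chosen for being higher in the knockouts and the neighbours were not. Over the 3 panels the neighbours range from -0.87 to 0.79, and those of Polr1a reach 0.44.

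On the other sides of Rspry1, Cpne2, a gene of the calcium-dependent copine family, had a log2 fold change of -0.35 ± 0.32 (SE), and Arl2bp, which encodes a binding partner of the small GTPase ARL2 and starts 6325 bp after Rspry1, of 0.07 ± 0.11 (SE). Their adjusted p-values by edgeR were 0.73 and 0.858. Gm45797, a tentative gene model inside Rspry1 on the same strand, had 6, 11 and 18 reads in controls and 20, 2 and 7 in knockouts. Reads in a stretch shared by both genes are ambiguous and are counted for neither, and their number was not measured here. The strand setting of the counting is not given in the sources used here, so reads in the 60 bp overlap with Fam192a are likewise uncertain, as are those that Polr1a shares with Gm26628 and Apoh with Prkca.

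Around Polr1a, the groups of 4 neighbours did not overlap, 2 in each direction, and none of the 4 passed the test. Immt, which encodes the core protein of the mitochondrial cristae junction complex, had a log2 fold change of 0.19 ± 0.10 (SE) and Reep1, a gene of endoplasmic reticulum shaping, of 0.24 ± 0.21 (SE). Rnf103, an ubiquitin ligase gene, had -0.49 ± 0.20 (SE), and Mat2a, whose enzyme makes S-adenosylmethionine, had -0.14 ± 0.13 (SE). The adjusted p-values by edgeR were 0.586 for Immt, 0.722 for Reep1, 0.507 for Rnf103 and 0.73 for Mat2a. Over all 47 neighbours, 2 had all knockouts above all controls and 2 all below, against 6.51% and 6.68% of all genes tested. St3gal5, the nearest tested gene after Polr1a and the gene of GM3 ganglioside synthase, had 0.10 ± 0.12 (SE). Gm26628, annotated antisense to Polr1a, had 25, 14 and 23 reads in controls and 28, 8 and 19 in knockouts, so it held few reads beside the 568 to 1189 of Polr1a.

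Around Apoh, the next tested gene, Cep112, a centrosomal protein gene 10796 bp after it, had 74.8, 83.0 and 90.5 CPM in controls and 89.4, 88.3 and 84.3 CPM in knockouts. Its log2 fold change was 0.08 ± 0.11 (SE) with an adjusted p of 0.839 by edgeR. On the far side of Prkca, the calcium channel subunit gene Cacng5 had -0.41 ± 0.46 (SE) at 11 to 31 reads. The region around Apoh holds few expressed genes, with 5 tested in the whole window.

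On the scale of chromosomes, Rspry1 lies on the same chromosome as Tex15, 61.0 Mb from its end, and the other 2 genes lie on other chromosomes. Of the 846 other tested genes of chromosome 8, 62 (7.33%) had all knockouts above all controls and 54 (6.38%) all below, against 6.51% and 6.68% of all genes tested. For chromosome 6 these were 46 (5.61%) and 63 (7.68%) of 820 genes, and for chromosome 11 they were 97 (7.95%) and 55 (4.51%) of 1220. The median log2 fold change of the other genes was 0.02 on chromosome 8, -0.02 on chromosome 6 and 0.05 on chromosome 11.

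The starts of the 3 genes differ in base composition. CpG dinucleotides and 3 motifs were counted on both strands of the 250 bases before each RefSeq start (GRCm38.p6). The median over 32851 RefSeq promoters was 6 CpG in these 250 bases. Rspry1 had 18 CpG (21.7% of promoters have as many) and 58.8% G and C, Polr1a had 13 CpG (31.5%) and 47.6%, and Apoh had 3 CpG (71.0%) and 42.0%. The TATA box letters TATAAA were found in none of the 3 windows and in 12.4% of all promoters. The CCAAT box was found 3 times before Rspry1 and 1 time before Polr1a, and in 33.8% of all promoters. The E-box letters CACGTG, which factors such as MYC and USF bind, were found 1 time, 77 bases before the start of Rspry1, and in 6.02% of all promoters. The motifs do not overlap each other. The window before Rspry1 lies inside the span of Fam192a and is given by its counts only. The windows of the other 2 are printed in full, on the plus strand with the CpG dinucleotides in capitals, because they show how far the most and the least abundant of these genes by reads differ in CpG.
Polr1a, chr6:71908803-71909052: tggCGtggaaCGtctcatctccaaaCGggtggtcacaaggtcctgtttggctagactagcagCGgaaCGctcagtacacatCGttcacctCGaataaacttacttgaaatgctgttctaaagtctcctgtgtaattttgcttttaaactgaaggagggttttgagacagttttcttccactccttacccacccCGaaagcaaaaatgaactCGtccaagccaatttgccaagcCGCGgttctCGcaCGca
Apoh, chr11:108395047-108395296: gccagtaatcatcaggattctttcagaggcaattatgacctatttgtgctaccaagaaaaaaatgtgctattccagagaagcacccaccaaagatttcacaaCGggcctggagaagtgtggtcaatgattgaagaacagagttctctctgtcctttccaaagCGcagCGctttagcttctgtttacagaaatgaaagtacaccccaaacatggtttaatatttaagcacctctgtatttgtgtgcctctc
In the Polr1a window CpG lies in the first and the last part with a long stretch of none between, while the Apoh window holds its 3 in the middle. The Apoh window precedes the start of Apoh-201 and not the outermost annotated start, which lies 51943 bp earlier and beside Prkca. No measurement in these files bears on which start was used.

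Other genes of the groups to which the 3 proteins belong were not called. By edgeR 0% of all genes were called and by DESeq2 0.0283%, so this does not set these groups apart. Of 22 other genes of RNA polymerase I transcription, which are its subunits, initiation factors, the termination factor gene Ttf1 and the nucleolar protein genes Tcof1 and Nolc1, all 22 were tested and 0 were called in either direction (0 by DESeq2, and 0 at an unadjusted p under 0.05, beside 9.2% of all genes tested). Of these, 13 had a log2 fold change above 0, with a median of 0.03 and a range of -0.32 to 0.39. Polr1b, the gene of the second largest subunit, had 141, 132 and 138 CPM in controls and 146, 147 and 127 CPM in knockouts, so it overlapped between groups. Its log2 fold change was 0.03 ± 0.10 (SE), against 0.68 ± 0.11 (SE) for Polr1a. Polr1a was chosen for being higher in the knockouts and Polr1b was not, so this is a description. Ubtf, the gene of the upstream binding factor of ribosomal DNA, had a log2 fold change of 0.05 ± 0.09 (SE), and Rrn3, whose protein brings the polymerase to the promoter, of 0.02 ± 0.14 (SE). In 1 of the 22, Tcof1, the groups did not overlap, beside 13.2% of all genes tested, at 71.0, 68.0 and 73.3 CPM in controls and 81.8, 81.4 and 82.2 CPM in knockouts, a log2 fold change of 0.21 ± 0.11 (SE) with an adjusted p of 0.58 by edgeR.

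Of 24 other genes whose proteins hold a SPRY domain, with the TRIM and butyrophilin families left out, 23 were tested and 0 were called by edgeR or DESeq2, with 2 at an unadjusted p under 0.05, beside 9.2% of all genes tested. In 3 the groups did not overlap, beside 13.2% of all genes tested. Their median log2 fold change was 0.02, with a range of -0.80 to 1.21. Ddx1, an RNA helicase gene, had a log2 fold change of 0.29 ± 0.11 (SE) and Hnrnpu, a nuclear RNA-binding protein gene, of 0.16 ± 0.09 (SE), and in both all knockouts lay above all controls. Cmya5, best known from striated muscle, had -0.80 ± 0.29 (SE), with 22.1, 24.5 and 28.2 CPM in controls and 21.8, 9.99 and 11.2 CPM in knockouts. The adjusted p of Ddx1 and Cmya5 was 0.471 and that of Hnrnpu 0.59, by edgeR. Ash2l, whose protein is a core subunit of histone H3 lysine methyltransferase complexes, had 0.12 ± 0.11 (SE).

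Of 30 other genes of plasma proteins that the liver secretes, 19 were tested and 0 were called by edgeR or DESeq2, with 5 at an unadjusted p under 0.05, beside 9.2% of all genes tested. Of the 19, 5 had a log2 fold change above 0, and the median was -0.44, with a range of -3.40 to 0.37. The median of this list differed between settings, at -1.08 with DESeq2, -1.05 with no filter and 0.19 with at least 10 counts in every library, a filter that by construction drops genes with few reads in the knockouts, such as Plg, Itih4 and Vtn. By edgeR with the filter Apoh, with 1.34, lay above this whole range. Apoh was chosen for being higher in the knockouts and the list was not, so this is a description. The fibrinolytic enzyme precursor gene Plg had a log2 fold change of -2.54 ± 0.59 (SE), the inhibitor family gene Itih4 of -2.53 ± 0.59 (SE) and the vitronectin gene Vtn of -1.34 ± 0.55 (SE), with adjusted p-values by edgeR of 0.46, 0.46 and 0.504. In each of these 3 all knockouts lay below all controls, as in 6.68% of all genes tested. The groups of Vtn nearly met, at 2.21 CPM in control library 1 and 2.20 CPM in Tex15-/- library 1. The controls of Plg were close together, at 4.06, 3.41 and 3.85 CPM, while Itih4 had 3.13, 14.2 and 10.8 CPM in controls and 2.61, 1.09 and 1.14 CPM in knockouts. Alb, the albumin gene, which did not pass the filter and was singled out after its values were seen, had 0.18, 135 and 97.9 CPM in controls and was listed at 0 in all 3 knockouts. The summed level of the list was 213, 423 and 337 CPM in controls and 192, 244 and 202 CPM in knockouts. The part of liver cells or their RNA in the level of Apoh was not tested.

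Summed markers of Sertoli, Leydig, interstitial and blood cells were higher in Tex15-/- libraries 2 and 3 than in all controls, and those of endothelial cells in library 2. In bulk libraries more cells of a type and more RNA per cell cannot be told apart. The summed markers of interstitial and mesenchymal cells were at 59.9 to 71.8 CPM in controls and at 60.7, 1692 and 404 CPM in Tex15-/- libraries 1 to 3. Of the tested markers in this list, Pdgfra, a receptor gene of mesenchymal cells, was the only one whose groups did not overlap. Among all genes tested, the groups of 13.2% did not overlap. Pdgfra was at 12.5, 14.6 and 13.2 CPM in controls and 17.6, 239 and 70.6 CPM in knockouts. Summed markers of Leydig cells, the steroid-making cells of the testis, were at 17.9 to 60.0 CPM in controls and 34.7, 552 and 170 CPM in knockouts. Those of Sertoli cells, the supporting cells of the tubules, were at 12.2 to 15.4 CPM in controls and 13.8, 132 and 83.9 CPM in knockouts. Endothelial markers were at 55.5 to 56.7 CPM against 42.7, 202 and 55.2 CPM, and blood markers at 10.3 to 13.2 CPM against 11.2, 28.0 and 35.6 CPM. Of the 29 genes in these 5 lists, 18 passed the filter, 0 were called by edgeR and 0 by DESeq2, and 13 had an unadjusted p under 0.05, beside 9.2% of all genes tested. Without Tex15-/- library 1, edgeR called 13 of the 18, beside 388 of 17520 genes (2.21%). In that library none of the 5 sums was above all controls, so the choice of library dropped largely fixed this count. Without Tex15-/- library 2 or library 3, edgeR called 0 of the 18, beside 5 and 0 among all genes. No marker was at 0 in all 6 libraries, while the Leydig marker Insl3 and the haemoglobin gene Hba-a1 were at 0 in all 3 controls and in knockout library 1.

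Knockout library 1, whose somatic marker sums lay within or below the range of the controls, had Rspry1 at 2.42 times, Polr1a at 1.56 times and Apoh at 2.73 times the control mean. Library 2, with the highest Sertoli, Leydig, interstitial and endothelial sums, had them at 2.14, 1.67 and 2.41 times, and library 3 at 2.18, 1.57 and 2.46 times. Since similar levels in all knockouts were part of the choice of the 3 genes, these ratios are a description, and the part of somatic cells in them was not tested. The share of reads on no annotated feature, among those on genes or on no feature, showed the same split of libraries. It was 36.6%, 41.2% and 39.8% in controls and 41.6%, 22.3% and 30.2% in knockouts.

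**Figure D4:**
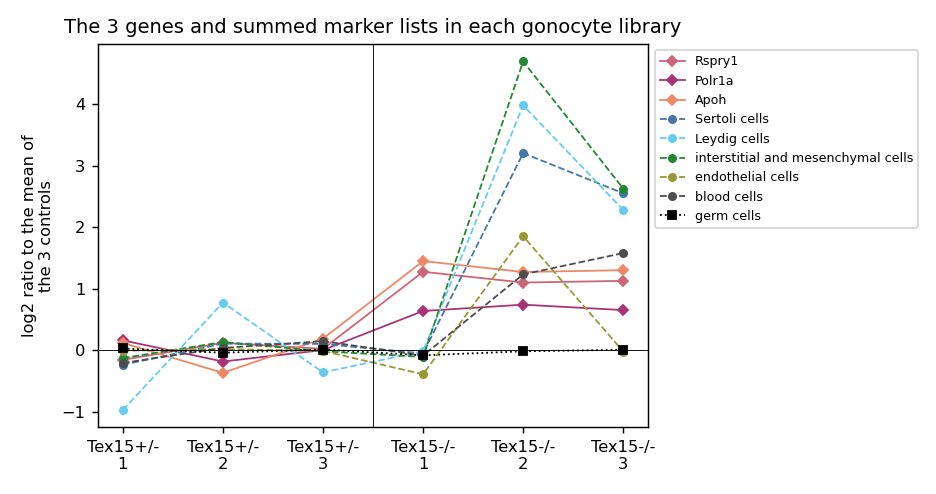
Log2 ratio of each gonocyte library to the mean of the 3 controls for Rspry1, Polr1a and Apoh (diamonds, solid lines) and for summed CPM of marker lists of somatic cells (circles, dashed lines) and germ cells (squares, dotted line). Lines join libraries only to guide the eye. Leydig, Sertoli, interstitial and blood lists are higher in Tex15-/- libraries 2 and 3 than in library 1, the endothelial list is highest in library 2, the germ cell list is level, and the 3 genes are at similar height in all 3 knockouts.

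The size of the change in the 3 genes was also computed under 12 alternatives. These were another normalisation, filters and dispersion estimate, DESeq2, a block for the replicate number, and fits that dropped 1 library each. Their log2 fold change ranged from 1.1 to 1.23 for Rspry1, from 0.59 to 0.77 for Polr1a and from 1.19 to 1.44 for Apoh. Leaving out any library keeps groups that do not overlap apart by construction. The sizes come from the same values that chose the genes, so their range is a description.

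Small RNA of E16.5 foetal testes is a readout that the choice of the 3 genes did not use, from other libraries of the same Tex15 genotypes. PIWI-interacting RNAs (piRNAs) of this stage guide PIWI proteins and are mostly 25 to 30 nt long with a uridine at the first base. A share of them comes from messenger RNAs, and adenine at base 10 is the mark of partners made by the slicing of a complementary piRNA. Reads of 25 to 30 nt that the authors classed as genic and that match a transcript of one of the 3 genes exactly in the sense direction were counted and scaled to RPM, reads per 1000000 reads of 18 to 32 nt. The libraries held between 11184854 and 20873463 such reads, except control library 2 with 83102785. Reads of 25 to 30 nt made up 24.7% of them in Tex15-/- library 2, the shallowest, and 32.3% to 36.7% in the other libraries. The part of this in the RPM values was not tested.

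Polr1a gave the most small RNA, with 86, 322 and 67 sense reads in the 3 controls against 80, 98 and 95 in the 3 knockouts. This was 6.24, 3.87 and 3.31 RPM in controls and 4.77, 8.76 and 4.55 in knockouts. The groups overlapped, and the means of 4.47 ± 1.56 and 6.03 ± 2.37 (SD, n = 3 each) differed by 1.55 RPM (exact permutation test, two-sided, p = 0.5). Without Tex15-/- library 2, which held the highest value, the difference was 0.185 RPM. Over all libraries there were 748 sense reads of 259 distinct sequences, 89.6% with a first uridine and 22.7% with adenine at base 10, and there were 8 antisense reads besides.

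Rspry1 had 6, 47 and 18 sense reads in controls and 18, 12 and 17 in knockouts, or 0.435, 0.566 and 0.889 against 1.07, 1.07 and 0.814 RPM. The groups overlapped through control library 3, and the means of 0.630 ± 0.233 and 0.987 ± 0.149 (SD, n = 3 each) differed by 0.357 RPM (exact permutation test, two-sided, p = 0.2). With each distinct sequence counted once, per 1000000 distinct sequences of 18 to 32 nt, the groups of Rspry1 did not overlap, and the p of the exact permutation test was 0.1, the smallest possible here. A count of distinct sequences moves with depth, control library 2 was the deepest, and the part of depth was not tested. Of its 118 sense reads, 83.9% had a first uridine and 20.3% adenine at base 10, and there were 14 antisense reads besides.

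Apoh had 3, 21 and 3 sense reads in controls and 6, 4 and 14 in knockouts, or 0.218, 0.253 and 0.148 against 0.357, 0.358 and 0.671 RPM. Every knockout lay above every control, and the means of 0.206 ± 0.0532 and 0.462 ± 0.181 (SD, n = 3 each) differed by 0.256 RPM (exact permutation test, two-sided, p = 0.1). That is the smallest p that 3 libraries against 3 can give, and adjusted over the 3 comparisons of small RNA the values were 0.3 for Rspry1 and Apoh and 0.5 for Polr1a. Without Tex15-/- library 3, which held the highest value, the difference for Apoh was 0.151 RPM. With 3 to 21 reads per library, counting error is large. Of its 51 sense reads, 68.6% had a first uridine and 51.0% adenine at base 10, and there were 7 antisense reads besides. Among all genic reads of 25 to 30 nt, the first uridine made up 70.7% to 70.9% in controls and 63.5% to 66.6% in knockouts, and adenine at base 10 made up 21% to 21.9% and 17.9% to 19.6%.

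**Figure D5:**
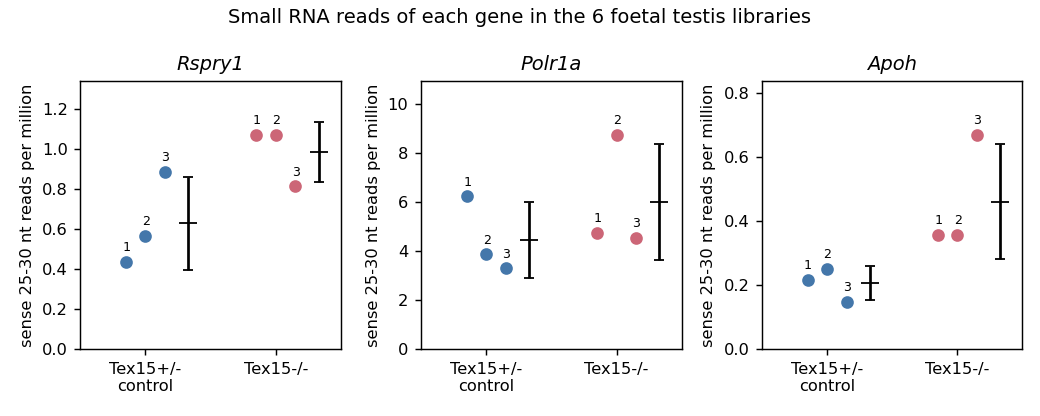
Sense reads of 25 to 30 nt from Rspry1, Polr1a and Apoh in RPM, per 1000000 reads of 18 to 32 nt (vertical axes, each starting at 0) in the 3 Tex15+/- and 3 Tex15-/- foetal testis libraries. Points are libraries with their replicate number, and bars show the mean ± SD (n = 3). The groups overlap for Rspry1 and Polr1a and do not overlap for Apoh, which has 3 to 21 reads per library.

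A single sequence made up 24.3% of the Polr1a reads, and the most frequent ones of each gene are shown to let a reader see the molecules that were counted. The sequences shown for Rspry1 and Apoh made up 5.93% and 11.8% of the reads of their genes. They are printed as sequenced, so that T stands for uridine, with the first base and base 10 in capitals, and each matches the GRCm38 genome exactly at 1 place, on the plus strand.
Polr1a, 182 reads, chr6:71913009-71913035: TtcaacaacTgctctggacacctgggc
Polr1a, 38 reads, chr6:71949424-71949450: TgctatgagAtctatgggggtgagacc
Rspry1, 7 reads, chr8:94602023-94602049: TaccgctctCttggacctgtcacaaag
Apoh, 6 reads, chr11:108404836-108404861: TctaagtgcAcggaggaaggaaaatg
The first Polr1a sequence lies in coding exon 2 of Polr1a-201 and was read 17, 92 and 12 times in the 3 controls against 22, 16 and 23 times in the 3 knockouts, so it was present in all 6 libraries. This gave 1.23, 1.11 and 0.592 RPM in controls and 1.31, 1.43 and 1.1 RPM in knockouts, and the groups overlapped. The second lies in coding exon 16 and was found in 5 libraries. The Rspry1 sequence lies in the untranslated part of exon 1 and the Apoh sequence in coding exon 4 of Apoh-201, and these were found in 4 and in 2 libraries. All 80 distinct sense sequences of Rspry1 matched the genome at exactly 1 place, as did 238 of 259 for Polr1a and 32 of 34 for Apoh, and the others matched at no place as a whole. Small RNA of Tex15, at 0.691 to 1.49 RPM in controls and 1.15 to 3.49 in knockouts, overlapped between groups and does not serve as a check of the genotype labels.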

How the data were processed

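Gonocyte RNA was aligned to GRCm38 with HISAT2, and the authors deposited whole-number counts of reads per gene from htseq-count (HTSeq 0.11.1), without normalisation. For small RNA they trimmed adaptors with cutadapt 1.8.1, annotated sequences with Bowtie 1.2.1.1 and deposited the count of reads of each sequence with its class. The summary rows that name no gene, which held 61.3% to 67.3% of all counts of a gonocyte library, were left out. Of 54838 gene identifiers, 54809 were matched to GENCODE vM21.

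Counts of all 16311 genes that passed filterByExpr (minimum count 10, minimum total 15) were fitted by edgeR 4.0.16 in R 4.3.3 (TMM, quasi-likelihood test, Benjamini-Hochberg adjustment over all genes tested, called under 0.01). DESeq2 1.42.0, other filters and scalings, a replicate block and fits without 1 library were alternatives. Scripts were tested on simulated data. Log2 CPM used a prior count of 2.

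The small RNA tables do not name the gene of a genic sequence, so these were matched exactly to GENCODE transcripts in place of the planned use of the authors' annotation. Repeats of classes other than genes were left out. Values were compared by exact permutation tests with scipy 1.17.1, and reads of 24 to 32 nt, distinct sequences counted once, scaling to reads of 21 to 23 nt, a replicate block and leaving out 1 library were alternatives. Values after ± are SDs between libraries or SEs of the edgeR fit, as named.

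The 3 genes and all gene lists were chosen with earlier results of these data known. Named genes are Tex15, the nearest and overlapping tested neighbours, tested neighbours and tested list genes whose groups did not overlap, and the 3 genes most correlated with each of the 3 over the 6 libraries. Other somatic markers are given as list sums only. Polr1b, Ubtf, Rrn3, Ash2l, Alb, Afp, C3, Itih2, Apoc1, Rbp4, Ttf1, Nolc1, Insl3, Hba-a1 and the germ cell markers fall outside this rule and were named after their values were seen. Repeat consensus counts and P20 testis libraries were not used here.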

Additional observations from a re-analysis of the deposited data

How the results depend on the processing

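Of the comparisons across genes, the count of called neighbours and of called RNA polymerase I genes was 0 under every alternative run. The count of all genes called, 0 as reported, was 12 with DESeq2, 488 with no filter on low counts, 1 with at least 10 counts in every library, 2 with the newer quasi-likelihood estimate and 3 at an adjusted p under 0.05. It ranged from 0 to 388 with each library left out, with 388 without Tex15-/- library 1, 5 without Tex15-/- library 2 and 1 without control library 1. The SPRY domain list ranged from 0 to 1 called gene, which was Cmya5 without Tex15-/- library 1. In that fit 388 of 17520 genes (2.21%) were called. With no filter, 4 of the 30 genes of the liver plasma protein list were called, beside 488 of all genes with any read. The size of that fit is not given here, but it held more than the 16311 genes of the filtered one. DESeq2, also run with no prior filter, held 42445. The share called was thus larger in the list than among all genes. The count for the list ranged from 0 to 1 with each library left out. The 1 was called without control library 1, in a fit that called no other gene. The cause of these changes was not tested.

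With the replicate number as a block, 0 genes were called, and the log2 fold changes of the 3 genes kept their direction, which their choice had fixed. The small RNA differences are the same with and without the block by construction, and the exact permutation p went from 0.2 to 0.5 for Rspry1, 0.5 to 0.75 for Polr1a and 0.1 to 0.25 for Apoh, where 0.25 is the smallest that 3 pairs can give. Same-numbered gonocyte libraries of both genotypes did not deviate together (correlations of -0.14, -0.04 and -0.01). With 3 libraries in each group this cannot decide whether they were paired, and the small RNA libraries were not compared in this way. Under the other small RNA alternatives with all libraries, the p was 0.1 to 0.2 for Rspry1, 0.2 to 0.5 for Polr1a and 0.1 for Apoh. The choices of small RNA sequences at 1 place of the genome and of spliced lengths were made after seeing the data. Apoh, with 23 to 81 reads in gonocytes and 3 to 21 in small RNA, is limited most by depth.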
